A study of Homo sapiens with 4 samples.

Results

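The vitamin K cycle enzymes are described here in human leukaemia cells in which the arginine methyltransferase PRMT9 was knocked down. They are 4 genes of the 57992 rows of the count table, VKORC1L1, VKORC1, GGCX and NQO1, found by their symbols. The set was chosen by the log2 fold change of VKORC1L1, which is among the largest falls in this same comparison, so the differences of the 4 genes, with their intervals and calls, are given as a description, and no test of them is offered. All 4 passed the filter on low counts, which 15193 genes passed.

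The data are 4 poly(A) RNA-seq libraries of MOLM13, a line established from an acute myeloid leukaemia, in a subline labelled as resistant to venetoclax, a BCL2 inhibitor. The 2 libraries named PRMT9 hairpin carried a doxycycline-induced short hairpin RNA against PRMT9, and the 2 libraries named control hairpin carried a control hairpin under the same induction. Venetoclax resistance and doxycycline were thus shared by every library, and uninduced or venetoclax-sensitive cells were not analysed here. The labels number the libraries 1 and 2 in each group without saying whether they were separate cultures or separate hairpins, so SDs, standard errors and p-values measure only the spread between these libraries.

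The vitamin K cycle serves gamma-carboxylation, in which glutamate residues of secreted and membrane proteins are turned into calcium-binding Gla residues. GGCX, the carboxylase of the endoplasmic reticulum, oxidises reduced vitamin K to its epoxide as it modifies each residue, and VKORC1 and its paralogue VKORC1L1 reduce the epoxide and the quinone again, using electrons passed on by thiol oxidoreductases. VKORC1 is the target of warfarin and the main supplier of the liver's clotting factors, while VKORC1L1 is better known from other tissues. NQO1, a cytosolic quinone reductase and a textbook target of the transcription factor NRF2, can reduce vitamin K quinones but not the epoxide.

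Both reductases act through a cysteine pair in a Cys-x-x-Cys arrangement, and the stretch of coding sequence around it is shown because it tells how far reads of the paralogues can be told apart. Each stretch lies in exon 3 of 3 and runs 5′ to 3′ on the coding strand of GRCh38, with the 4 codons of the cysteine arrangement in capitals (GENCODE release 29).
VKORC1L1, chr7:65954160-65954219, plus strand: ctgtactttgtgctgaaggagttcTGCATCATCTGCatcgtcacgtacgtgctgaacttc
VKORC1, chr16:31091197-31091256, minus strand: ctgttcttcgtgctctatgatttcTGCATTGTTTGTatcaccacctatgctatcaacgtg
The arrangement begins at coding base 415 of 528 in VKORC1L1 and at coding base 394 of 489 in VKORC1. The stretches match at 40 of 60 bases, and the coding sequences match at 299 of 476 aligned bases, or 62.8%. VKORC1L1 and VKORC1 shared 0 windows of 50 bases in their annotated transcripts, so reads of that length would not be exchanged between them.

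The libraries held 30764403 and 33845172 counts with the PRMT9 hairpin, against 30329901 and 28592902 with the control hairpin. PRMT9 (chromosome 4, 147637785 to 147684230, minus strand) had 81 and 78 counts in PRMT9 hairpin libraries, against 398 and 406 in control libraries. That is 17.9% of the control level (edgeR log2 fold change -2.48, SE 0.12, adjusted p = 5.24e-13). All 8 myeloid markers were detected. Their summed level was 2117 to 2118 CPM (counts scaled to the depth of the library) with the PRMT9 hairpin and 1530 to 1543 CPM with the control hairpin. LYZ alone averaged 942 CPM with the PRMT9 hairpin and 607 CPM with the control hairpin. Of the 8 markers, edgeR called 7 higher and MPO lower, against 33.4% higher and 34.5% lower of all tested genes. HBB and HBA1 (red cells), EPCAM and KRT19 (epithelia), CD2 (T cells) and TTR (liver) were at 0 in every library, and the summed level of the 6 lymphoid markers was 0.679 to 0.736 CPM with the PRMT9 hairpin and 0.562 to 0.706 CPM with the control hairpin. The 4 epithelial markers summed to 24.3 to 26.2 CPM with the PRMT9 hairpin and 22.0 to 22.5 CPM with the control hairpin, nearly all of it KRT18. The 4 erythroid markers summed to at most 0.0589 CPM in any library, and the 4 hepatocyte markers to 0.501 to 1.07 CPM with the PRMT9 hairpin and 0.176 to 0.265 CPM with the control hairpin. The part that the higher myeloid markers play in the values that follow was not tested. In bulk RNA, fewer cells that express a gene and less of its RNA per cell cannot be told apart.

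VKORC1L1 was the member that differed most. The gene (ENSG00000196715, chromosome 7, 65873267 to 65959563, plus strand of GRCh38) had 843 and 934 counts in PRMT9 hairpin libraries, against 2793 and 2756 in control libraries. Scaled for depth, this was 27.3 and 27.5 CPM with the PRMT9 hairpin, against 92.4 and 97.2 CPM with the control hairpin. The groups were far apart, and the libraries within a group lay close together. The means were 27.4 ± 0.179 CPM with the PRMT9 hairpin and 94.8 ± 3.45 CPM with the control hairpin (SD, n = 2 each), a log2 fold change of -1.79 (SE 0.04, 95% confidence interval -1.88 to -1.70). The PRMT9 hairpin libraries thus held 28.9% of the control level (interval 27.1% to 30.8%), a level 3.46-fold lower.

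Among all tested genes VKORC1L1 had the 63rd lowest log2 fold change, and the 12th lowest among the 9052 genes with a mean of at least 10 CPM. Its RPKM, the authors' count per exon length and depth, stood at percentile 53.9 of the tested genes with the PRMT9 hairpin and at percentile 82.1 with the control hairpin. None of its exon bases is shared with another annotated gene, and 2.63% of its 50-base windows occur in other genes. The deposited exon length of 5899 bases differs from the 6000 bases of GENCODE release 29.

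VKORC1, the reductase that warfarin inhibits, was a low-count gene in these cells. The gene (ENSG00000167397, chromosome 16, 31090842 to 31095980, minus strand) had 77 and 93 counts in PRMT9 hairpin libraries, against 90 and 71 in control libraries. The groups overlapped, at 2.49 and 2.74 CPM with the PRMT9 hairpin, against 2.98 and 2.51 CPM with the control hairpin. The log2 fold change was -0.07 (SE 0.19), with a 95% interval of -0.46 to 0.32, and its sign turned with upper-quartile scaling (0.02) and without control hairpin library 1 (0.06). The interval leaves room for 72.8% to 125% of the control level.

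The VKORC1 value is also uncertain in its counting. Other annotated genes share 74.5% of its exon bases, 34.7% with the protein-coding gene RP11-196G11.1 on the same strand and 58.1% with RP11-196G11.3 on the opposite strand. RP11-196G11.1 had 0 counts in every library, and RP11-196G11.3 had 2 and 1 counts with the PRMT9 hairpin, against 4 and 0 with the control hairpin. Of the 50-base windows of VKORC1, 64.4% occur in those genes, and how the authors' counting treated such reads and their strand is not given in the sources used here.

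GGCX, the carboxylase itself, was lower by a smaller amount. The gene (ENSG00000115486, chromosome 2, 85544723 to 85561547, minus strand) had 694 and 746 counts in PRMT9 hairpin libraries, against 849 and 716 in control libraries. At 22.4 and 22.0 CPM with the PRMT9 hairpin, against 28.1 and 25.3 CPM with the control hairpin, the groups did not overlap. Control hairpin library 1 was the highest. The log2 fold change was -0.27 (SE 0.06, 95% interval -0.40 to -0.13), or 83.2% of the control level (interval 76.0% to 91.1%). Without control hairpin library 1 it was -0.19. GGCX shares 558 of its exon bases (6.13%) with MAT2A on the opposite strand, and MAT2A was far more abundant, with 12162 and 13164 counts in PRMT9 hairpin libraries, against 16845 and 15615 in control libraries.

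NQO1 lay between GGCX and VKORC1L1 in the size of its difference. The gene (ENSG00000181019, chromosome 16, 69706996 to 69726951, minus strand) had 403 and 448 counts in PRMT9 hairpin libraries, against 619 and 569 in control libraries. Its levels of 13.0 and 13.2 CPM with the PRMT9 hairpin, against 20.5 and 20.1 CPM with the control hairpin, did not overlap and differed little within a group. The log2 fold change was -0.63 (SE 0.07, 95% interval -0.78 to -0.48), or 64.7% of the control level (interval 58.2% to 71.9%). An antisense gene shares 17.7% of its exon bases and had 0 or 1 counts in a library.

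Over the set, edgeR called 3 of the 4 genes lower and 0 higher, and in the same 3 genes both PRMT9 hairpin libraries lay below both control libraries. Of all tested genes, 67.9% were called in either direction, 33.4% higher and 34.5% lower, and in 41.7% both PRMT9 hairpin libraries lay below both control libraries. Since the set was chosen in this comparison, the count is a description only.

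**Figure D1:**
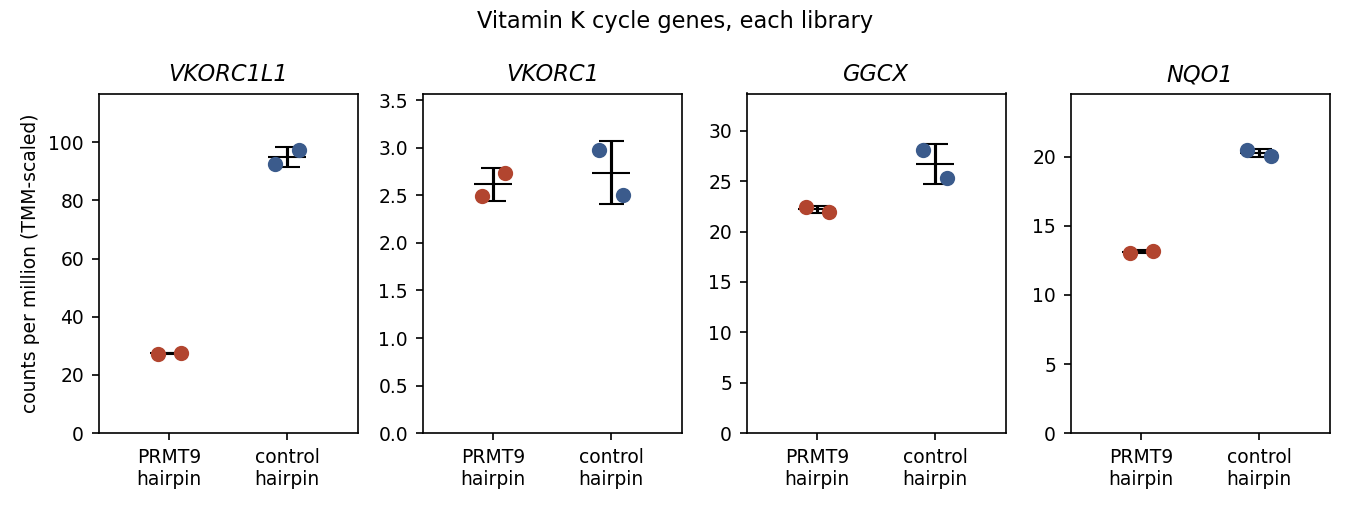
Depth-scaled level of each vitamin K cycle gene in CPM on the vertical axis, which starts at 0 and has its own range in each panel. Points are libraries, horizontal bars the mean and whiskers the SD of 2 libraries, and VKORC1L1 lies at 27.3 and 27.5 CPM with the PRMT9 hairpin and at 92.4 and 97.2 CPM with the control hairpin, while the VKORC1 groups overlap.

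Per whole exon length, the order of the 4 genes was VKORC1L1, NQO1, GGCX and VKORC1 in both groups, and no neighbours in that order overlapped. The authors' RPKM of VKORC1L1 was 4.61 and 4.66 in PRMT9 hairpin libraries, against 15.5 and 16.7 in control libraries. NQO1 averaged 4.02 ± 0.0422 RPKM with the PRMT9 hairpin and 6.23 ± 0.0223 RPKM with the control hairpin (SD, n = 2 each). GGCX averaged 2.44 ± 0.0323 RPKM with the PRMT9 hairpin and 2.93 ± 0.168 RPKM with the control hairpin. VKORC1 had 1.19 ± 0.0823 RPKM with the PRMT9 hairpin and 1.25 ± 0.130 RPKM with the control hairpin. The place of VKORC1 rests on how reads on its shared exon bases were counted. If every such read had gone uncounted, its level over the unshared bases would be 4.45 and 4.91 RPKM with the PRMT9 hairpin, against 5.27 and 4.54 RPKM with the control hairpin. On the same footing NQO1 would have 4.85 and 4.92 RPKM with the PRMT9 hairpin, against 7.55 and 7.59 RPKM with the control hairpin, so VKORC1 would no longer be below GGCX, and NQO1 would stand above VKORC1L1 with the PRMT9 hairpin. For scale, the median tested gene had 3.90 RPKM with the PRMT9 hairpin and 3.92 RPKM with the control hairpin.

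The deposited RPKM of the genes, over whole exons, lay closer together in the PRMT9 hairpin libraries. VKORC1L1, the highest of them, was chosen for its fall, so lower ratios of it to the others were built into the choice. VKORC1L1 stood at 3.90 ± 0.238 times the RPKM of VKORC1 with the PRMT9 hairpin, and at 13.0 ± 2.04 times with the control hairpin. Its ratio to GGCX was 1.90 ± 0.0407 with the PRMT9 hairpin and 5.51 ± 0.610 with the control hairpin. Its ratio to NQO1 was 1.15 ± 0.00272 with the PRMT9 hairpin and 2.58 ± 0.129 with the control hairpin. NQO1 to GGCX, a ratio without the chosen gene, was 1.65 ± 0.0392 with the PRMT9 hairpin and 2.13 ± 0.130 with the control hairpin.

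Of the summed deposited RPKM of VKORC1L1 and VKORC1, VKORC1L1 made up 80.3% and 78.9% in PRMT9 hairpin libraries, against 92.0% and 93.5% in control libraries. The summed RPKM of the pair was 5.83 ± 0.120 with the PRMT9 hairpin and 17.3 ± 0.733 with the control hairpin (SD, n = 2 each), so 33.6% of the control sum was present. Over unshared exon bases only, the VKORC1L1 share would be 50.9% and 48.7% with the PRMT9 hairpin, against 74.6% and 78.6% with the control hairpin. The share was lower with the PRMT9 hairpin, and it contains the gene by whose fall the set was chosen. The unshared scale divides each gene by its own constant in every library. It could therefore change the size of the difference but not its direction, and the size was not settled. These are shares of RNA, and protein was not measured here.

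**Figure D2:**
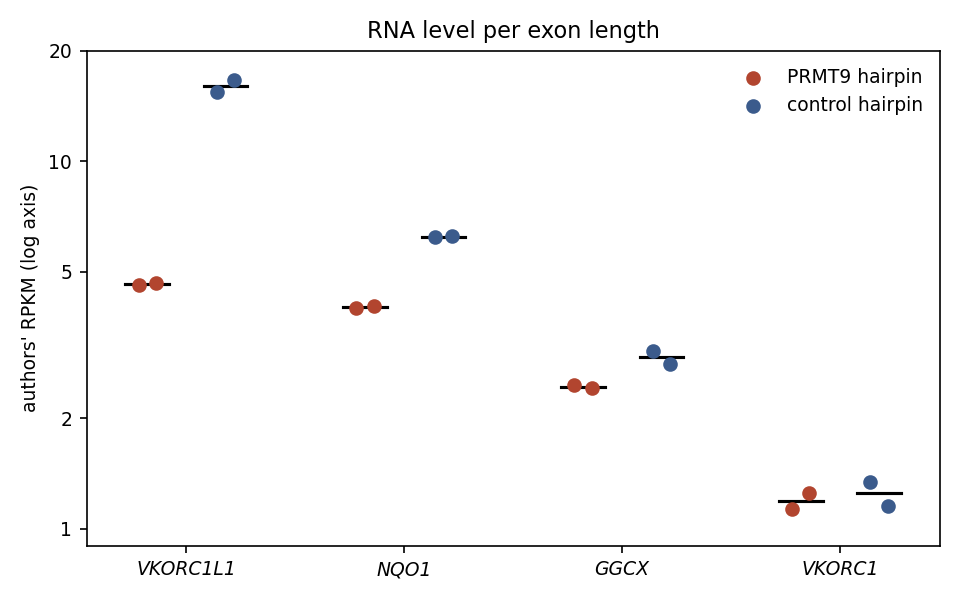
The authors' RPKM of the 4 genes on a log axis, ordered by level over the whole exon length, with 1 point per library and a line at the mean. VKORC1L1 is the highest in both groups, and its 4.61 and 4.66 RPKM with the PRMT9 hairpin lie below the 6.21 and 6.25 RPKM of NQO1 with the control hairpin.

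The bases before the RefSeq start of both reductase genes are shown because the values of the paralogues differed. Whether these bases have a part in that difference was not tested. In each case 100 bases are given 5′ to 3′ on the gene's strand, from RefSeq promoters on GRCh38.p14, with matches to the motifs named next in capitals. The VKORC1 stretch lies inside the gene span of the count table, which begins farther upstream than the RefSeq start.
VKORC1L1, chr7:65872974-65873073, plus strand: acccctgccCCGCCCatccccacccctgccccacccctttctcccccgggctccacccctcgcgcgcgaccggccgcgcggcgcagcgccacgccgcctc
VKORC1, chr16:31094798-31094897, minus strand: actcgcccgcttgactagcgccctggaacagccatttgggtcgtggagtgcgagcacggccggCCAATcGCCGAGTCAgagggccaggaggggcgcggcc
Windows from 250 bases before to 50 bases after the start were searched on both strands in all 4 genes, which all matched an entry, and in 35116 promoters in all. The GC box GGGCGG was found 4 times in VKORC1L1, 3 times in NQO1 and once each in VKORC1 and GGCX, and 45.0% of promoters hold it. The core of the antioxidant response element, TGACNNNGC, was found once in VKORC1L1 outside the bases shown and once in VKORC1, and 13.3% of promoters hold it. The windows of GGCX and NQO1 did not hold it, and bases farther from the start were not searched. CCAAT was found once, in VKORC1, and is held by 34.6% of promoters, while the E-box CACGTG (7.26% of promoters) and TATAAA (11.5%) were not in these windows. No match overlapped another motif. VKORC1L1 had a GC content of 72.7%, against 63.7% in VKORC1, 62.3% in GGCX, 62.7% in NQO1 and a median of 58.7% over all promoters.

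The genes around vitamin K were followed in 7 lists with 73 genes, of which 55 were tested. Of these, edgeR called 21 higher, 24 lower and 10 neither, so 81.8% were called, against 67.9% of all tested genes. Their median log2 fold change was -0.04, against 0.00 over all tested genes. The lists therefore held changes in both directions, and the roles are described in turn. Since the lists were chosen with earlier results of these data known, their counts and shares are a description only. For every list, the shares of all tested genes to set beside its counts are 33.4% higher and 34.5% lower. The exon bases shared with other annotated genes were at most 25.2% in each tested gene of the lists, except CBR3 (42.2%), TXNDC12 (49.7%), TXNDC5 (60.6%) and FTH1 (62.4%). FTH1, FTL and AKR1C1 have close relatives or copies in the genome, and how reads matching several places were counted is not given in the sources used here.

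Genes that make, reduce or degrade vitamin K and other quinones moved both ways, with 5 of 8 tested higher, 2 lower and 1 not called (median log2 fold change 0.18). Over all tested genes, 33.4% were called higher and 34.5% lower. CBR1, a carbonyl reductase, fell to 14.8 and 13.4 CPM with the PRMT9 hairpin, against 20.2 and 21.8 CPM with the control hairpin (log2 fold change -0.57, SE 0.08, edgeR adjusted p = 1.75e-06).

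AIFM2, also called FSP1, reduces vitamin K to its hydroquinone in the defence against lipid peroxidation. It had 9.44 and 9.07 CPM with the PRMT9 hairpin, against 9.89 and 9.81 CPM with the control hairpin, and was not called (log2 fold change -0.09, SE 0.09, edgeR adjusted p = 0.401). TP53I3, a quinone reductase first known as a p53 target, rose to 3.62 and 3.80 CPM with the PRMT9 hairpin, against 2.02 and 2.12 CPM with the control hairpin (log2 fold change 0.84, edgeR adjusted p = 3.04e-04). CYP4F11, a hydroxylase that starts the breakdown of vitamin K side chains, had 19 and 20 counts with the PRMT9 hairpin, against 5 and 3 with the control hairpin, so its log2 fold change of 2.11 (SE 0.52) rests on few reads.

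The remaining quinone reductases gave calls that changed with the setting. With all 4 libraries, DESeq2 did not call NQO2 (adjusted p = 0.229), CRYZ (adjusted p = 0.195) or CBR3 (adjusted p = 0.091). NQO2, the paralogue of NQO1, had a log2 fold change of 0.20 (edgeR adjusted p = 0.0446), which was 0.14 (adjusted p = 0.298) without PRMT9 hairpin library 1 and 0.19 (adjusted p = 0.0974) without control library 1. CRYZ had 0.17 (edgeR adjusted p = 0.0282), and lost its call without control library 1 (adjusted p = 0.161), PRMT9 hairpin library 1 (adjusted p = 0.0517) or PRMT9 hairpin library 2 (adjusted p = 0.153). CBR3 had 0.52 (edgeR adjusted p = 0.00842), and lost its call without PRMT9 hairpin library 1 (0.44, adjusted p = 0.0925). Of the CBR3 exon bases, 42.2% are shared with CBR3-AS1 on the opposite strand. CBR3-AS1 had 89 and 91 counts with the PRMT9 hairpin, against 40 and 32 with the control hairpin. The part of CBR3-AS1 in the CBR3 value was not tested. NQO1 and NQO2 thus had log2 fold changes of opposite sign, -0.63 and 0.20.

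The next list joined thiol oxidoreductases and related redox genes, mostly of the endoplasmic reticulum, with CALU, a regulator of carboxylation. Of its 13 tested genes, 7 with CALU among them were called lower, 1 higher and 5 neither (median log2 fold change -0.21). Over all tested genes, 34.5% were called lower and 33.4% higher. The membrane-bound TMX4 fell most in this list, to 36.2 and 34.0 CPM with the PRMT9 hairpin, against 57.1 and 60.5 CPM with the control hairpin (log2 fold change -0.75, SE 0.05, edgeR adjusted p = 5.27e-11). PDIA6 had -0.60, PDIA4 -0.52, PDIA3 -0.40 and TMX1 -0.32, all log2 fold changes with groups apart, as in 41.7% of all tested genes in this direction. PRDX4, a peroxiredoxin that oxidises PDI proteins, fell as well, to 28.0 and 27.2 CPM with the PRMT9 hairpin, against 39.6 and 39.3 CPM with the control hairpin. CALU encodes calumenin, an inhibitor of carboxylation, and it fell by 0.21 on the log2 scale (SE 0.03, edgeR adjusted p = 1.44e-05).

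The oxidase QSOX1 went the other way, at 245 and 247 CPM with the PRMT9 hairpin, against 174 and 178 CPM with the control hairpin (log2 fold change 0.48, SE 0.02, edgeR adjusted p = 1.20e-12). P4HB, the best known disulfide isomerase, stood at 908 and 909 CPM with the PRMT9 hairpin, against 888 and 887 CPM with the control hairpin, and was not called (edgeR adjusted p = 0.119), though without control library 2 it was (0.05, adjusted p = 0.0126). ERO1B had a log2 fold change of 0.12 (edgeR adjusted p = 0.0584), and 0.15 (adjusted p = 0.0474) without control library 1. ERO1A (-0.04), TXNDC12 (-0.05) and TXNDC5 (0.01) were not called.

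Few of the proteins that receive Gla residues were expressed. Of 15 genes, 3 passed the filter, and F2, F7, F9, F10, PROC, MGP, PRRG1 and UCMA were at 0 in every library, which allows up to 0.0884 to 0.106 CPM in a library by counting error alone. GAS6, the growth arrest-specific ligand of TAM receptors, was the most abundant, at 175 and 178 CPM with the PRMT9 hairpin, against 163 and 168 CPM with the control hairpin. Its log2 fold change of 0.09 (edgeR adjusted p = 0.00356) was 0.07 (adjusted p = 0.0556) without control library 1. PROS1, which encodes protein S, an anticoagulant and TAM ligand, rose to 25.3 and 26.3 CPM with the PRMT9 hairpin, against 16.7 and 15.2 CPM with the control hairpin (log2 fold change 0.69, SE 0.07, edgeR adjusted p = 2.42e-08). PRRG4, a transmembrane Gla protein, fell to 16.2 and 16.0 CPM with the PRMT9 hairpin, against 31.0 and 28.8 CPM with the control hairpin (log2 fold change -0.89, edgeR adjusted p = 2.22e-10).

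The TAM receptors of these ligands moved apart. AXL rose to 14.1 and 13.1 CPM with the PRMT9 hairpin, against 3.87 and 3.81 CPM with the control hairpin (log2 fold change 1.82, SE 0.10, edgeR adjusted p = 9.80e-12). TYRO3 fell to 4.24 and 3.74 CPM with the PRMT9 hairpin, against 7.57 and 8.79 CPM with the control hairpin (log2 fold change -1.04, SE 0.13, edgeR adjusted p = 5.43e-07). MERTK was below the filter, at 0.194 and 0.177 CPM with the PRMT9 hairpin, against 0.0992 and 0.0706 CPM with the control hairpin.

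Receptors that take up vitamin K with lipoproteins were called higher in 3 of 4 tested and lower in 1 (median log2 fold change 0.46). Over all tested genes, 33.4% were called higher and 34.5% lower. LRP1, a receptor of chylomicron remnants, rose to 4.69 and 4.95 CPM with the PRMT9 hairpin, against 1.06 CPM in each control library (log2 fold change 2.18, SE 0.19, edgeR adjusted p = 4.47e-09). CD36 had a log2 fold change of 0.34, and SCARB1, the high-density lipoprotein receptor, fell by 0.46 on the log2 scale. NPC1L1 was below the filter.

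NRF2, encoded by NFE2L2, drives NQO1 in many tissues, and its inhibitor KEAP1 and partners were measured beside it. Of the 6 factors, edgeR called 2 higher, 3 lower and 1 neither (median log2 fold change 0.00). NFE2L2 fell to 88.0 and 91.9 CPM with the PRMT9 hairpin, against 101 and 99.0 CPM with the control hairpin (log2 fold change -0.15, edgeR adjusted p = 4.41e-04), a call that upper-quartile scaling removed (-0.06, adjusted p = 0.102). KEAP1 had -0.23 and the partner MAFG -0.25. The repressor BACH1 rose by a log2 fold change of 0.31, and MAFF, a small MAF protein, by 1.54, at 3.20 and 3.15 CPM with the PRMT9 hairpin, against 1.09 CPM in each control library. MAFK had 0.14 (edgeR adjusted p = 0.17), and 0.29 (adjusted p = 0.00549) without PRMT9 hairpin library 2.

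Textbook NRF2 targets other than NQO1 were split, with 7 of 19 tested higher, 9 lower and 3 not called (median log2 fold change -0.07). Of those lower, SLC7A11, the cystine transporter, fell to 5.37 and 5.21 CPM with the PRMT9 hairpin, against 33.9 and 35.5 CPM with the control hairpin (log2 fold change -2.71, SE 0.08, edgeR adjusted p = 2.51e-16). ME1, the malic enzyme, had a log2 fold change of -0.95, GCLC and GCLM, the subunits of glutamate-cysteine ligase, -0.88 and -0.73, and TXNRD1, thioredoxin reductase, -0.77. AKR1B1, GSR, PGD and TALDO1 lay between -0.48 and -0.26.

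Of the targets called higher, HMOX1, heme oxygenase, rose to 3.62 and 4.18 CPM with the PRMT9 hairpin, against 1.22 and 1.34 CPM with the control hairpin (log2 fold change 1.61, SE 0.20, edgeR adjusted p = 6.58e-07). SQSTM1, the autophagy receptor p62, rose to 200.1 and 197 CPM with the PRMT9 hairpin, against 93.0 and 96.1 CPM with the control hairpin. The ferritin genes FTH1 and FTL had log2 fold changes of 0.92 and 0.43. OSGIN1 (1.47) and ABCC1 (0.28) were also called, and AKR1C1 (0.74, edgeR adjusted p = 0.032) lost its call when any of the 4 libraries was left out, with adjusted p between 0.0566 and 0.173. TKT (0.00) and EPHX1 (0.04) were not called.

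**Figure D3:**
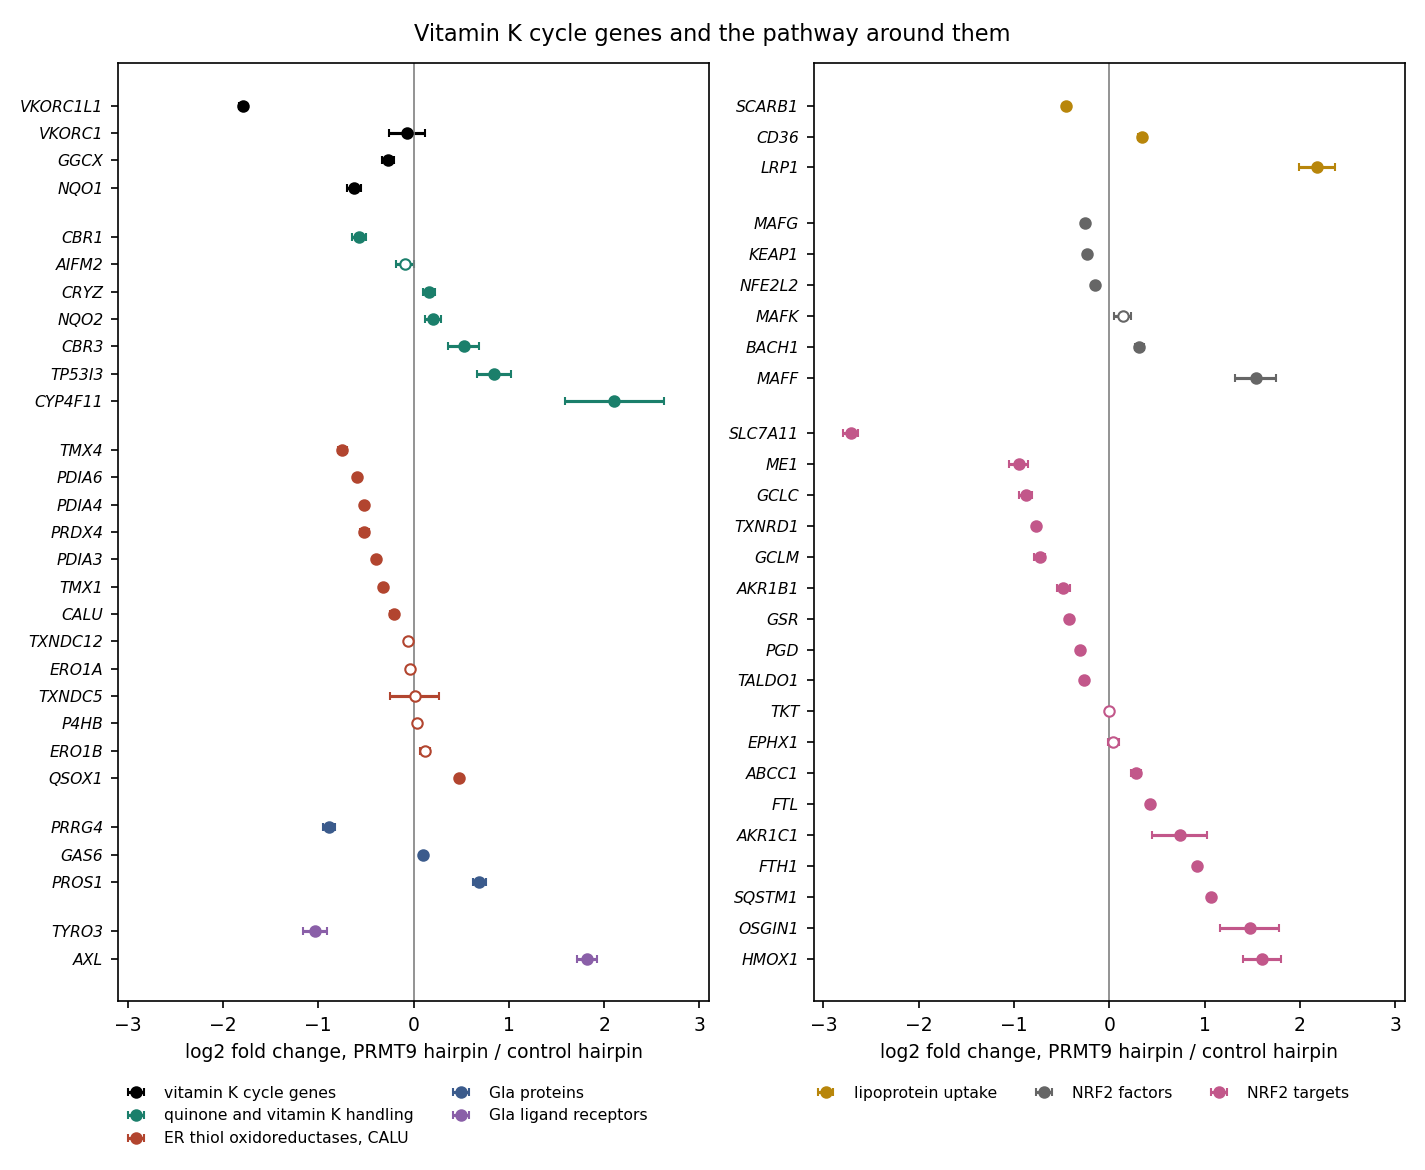
Log2 fold change of PRMT9 hairpin over control hairpin on the horizontal axis for the 4 vitamin K cycle genes (black) and 52 tested genes of the 7 lists, with whiskers of 1 standard error. Filled points among the coloured genes were called by edgeR and open points were not, and the points spread to both sides of 0, from -2.71 for SLC7A11 to 2.18 for LRP1.

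The nearest tested genes in the genome did not share the size of the VKORC1L1 difference. VKORC1L1 was chosen for its fall, so smaller differences beside it were largely built into the choice. GUSB, which encodes the lysosomal beta-glucuronidase and ends 1121 bases from the end of VKORC1L1 on the opposite strand, had 38.1 and 37.6 CPM with the PRMT9 hairpin, against 45.0 and 42.4 CPM with the control hairpin (log2 fold change -0.21, SE 0.05, edgeR adjusted p = 7.27e-04). Next to it ASL, argininosuccinate lyase, had a log2 fold change of -0.29 (edgeR adjusted p = 0.0343), which lost its call without PRMT9 hairpin library 1 (-0.32, adjusted p = 0.0721), PRMT9 hairpin library 2 (-0.25, adjusted p = 0.157) or control library 2 (-0.14, adjusted p = 0.346). On the other side GTF2IP5 had 1.27 (SE 0.40, edgeR adjusted p = 0.00895) and RP11-479O9.4 had 0.04 (SE 0.27, edgeR adjusted p = 0.90), at 0.282 to 1.36 CPM in a library. With all 4 libraries, DESeq2 did not call GTF2IP5 (adjusted p = 0.103) or ASL (adjusted p = 0.214). After upper-quartile scaling, edgeR did not call ASL (adjusted p = 0.137). The GTF2IP5 call was lost without PRMT9 hairpin library 1 (adjusted p = 0.0589), PRMT9 hairpin library 2 (adjusted p = 0.0733) or control library 2 (adjusted p = 0.0638).

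Around VKORC1, PRSS53 was not called (log2 fold change -0.44, edgeR adjusted p = 0.184), and ZNF646 (0.68) and BCKDK (0.34) rose. KAT8 had -0.13 (edgeR adjusted p = 0.0275), and its call was lost without PRMT9 hairpin library 1 (adjusted p = 0.0724), PRMT9 hairpin library 2 (adjusted p = 0.132) or control library 1 (adjusted p = 0.165). With all 4 libraries, KAT8 was not called by DESeq2 (adjusted p = 0.219) or by edgeR after upper-quartile scaling (adjusted p = 0.448). Around GGCX, the overlapping MAT2A fell (-0.50, SE 0.02, edgeR adjusted p = 5.22e-14) and so did VAMP8 (-0.18), 15 bases away, while CAPG rose (0.32) and VAMP5 was not called (0.36, edgeR adjusted p = 0.242). Around NQO1, NFAT5 (-0.27) and CYB5B (-0.20) fell, NOB1 rose (0.38) and the non-coding CTD-2033A16.3 was not called (0.59, edgeR adjusted p = 0.115).

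**Figure D4:**
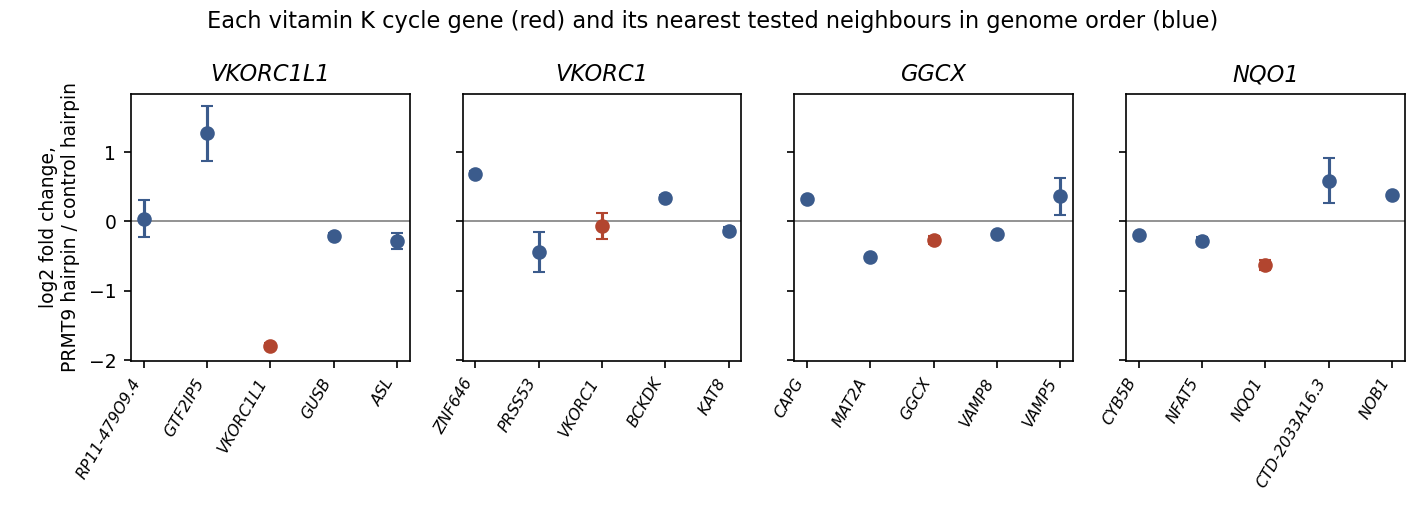
Log2 fold change of PRMT9 hairpin over control hairpin, on the vertical axis, for each vitamin K cycle gene (red) and the 2 nearest tested genes on each side (blue) in genome order, with whiskers of 1 standard error. VKORC1L1 at -1.79, chosen for its fall, lies below its neighbours, which run from -0.29 to 1.27. NQO1 at -0.63 lies below neighbours that run from -0.27 to 0.59.

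For each gene the 5 genes with the closest profile over the 4 libraries were found among those with a mean of at least 10 CPM, by Euclidean distance in centred log2 CPM. Closest to VKORC1L1 were MCM10, a replication factor (distance 0.05), SHISA2 (0.08), the chromatin proteins HMGB2 and HMGB1 (0.09 each) and WDR62, a spindle pole protein (0.11). MCM10 had 26.6 and 26.8 CPM with the PRMT9 hairpin, against 92.6 and 93.1 CPM with the control hairpin, nearly the levels of VKORC1L1. HMGB1 stood much higher, at 304 CPM in each PRMT9 hairpin library, against 1107 and 1113 CPM with the control hairpin, a log2 fold change of -1.87. Its copies elsewhere in the genome make its count uncertain. Closest to NQO1 were CHD1 (0.01), PTDSS1, SMNDC1, STMN1 and TDG, with log2 fold changes of -0.64 to -0.61. Among the closest to GGCX were CLN8, DEAF1, MAPK6 and SPRYD7, and closest to VKORC1 were NUBPL, XPNPEP3, THUMPD3-AS1, DDN and C12orf75. With 4 libraries in 2 groups, such a profile is little more than a fold change and the spread within each group.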

How the data were processed

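Poly(A) RNA from 4 libraries was measured. The deposited tables hold raw counts and RPKM by Ensembl gene, on GRCh38. The submitters' processing notes name Trimmomatic 0.39, STAR 2.7.2a and SAMtools 1.10. Which program counted reads, how it used strand, and which annotation release it read is not given in the sources used here. For the genes checked, the authors' RPKM could be rebuilt from the count, the exon length and the TMM-scaled library total over all rows (relative tolerance 1e-06). Only genes with higher summed counts were checked, and VKORC1 was not among them.

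Counts of 15193 genes kept by filterByExpr (minimum count 10) were fitted with edgeR 4.0.16 in R 4.3.3 (TMM scaling, robust quasi-likelihood test, group term), and genes with a Benjamini-Hochberg adjusted p below 0.05 were called. CPM are TMM-scaled, and intervals are 95%. The libraries of a group differed by more than sampling noise (chi-square per gene 1.60 with the PRMT9 hairpin and 3.00 with the control hairpin), so none was treated as a repeat deposit of another, which does not show that they were independent cultures.

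The named genes are PRMT9, the 4 members, the tested genes of 7 pathway lists, 2 neighbours on each side and 5 similar genes per member. Some of these genes are not reported here. Members and lists were chosen with earlier results of these data known. Alternatives were other scalings and filters, DESeq2 1.42.0, limma 3.58.1 with voom or on log2(RPKM + 1) and log2(RPKM + 0.1), the replicate number as a block, and each library left out. Exon sharing came from GENCODE release 29, which holds 57388 of the 57992 row identifiers, and promoters from RefSeq.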

Additional observations from a re-analysis of the deposited data

How the results depend on the processing

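Over the 14 alternatives, the log2 fold change ran from -1.84 to -1.60 for VKORC1L1 (-1.84 to -1.74 with a library left out), from -0.64 to -0.53 for NQO1 (-0.64 to -0.62 with a library left out), from -0.32 to -0.18 for GGCX (-0.32 to -0.19 with a library left out) and from -0.17 to 0.06 for VKORC1. GGCX lost its call in log2(RPKM + 1) without a filter (-0.19), where the lists had 13 genes called higher in place of 21 and CYP4F11, LRP1, TYRO3, OSGIN1, ABCC1, CALU and NFE2L2 were among those that lost their call. With the same pseudocount and the filter kept, GGCX (-0.19) was called and the lists had 17 higher. The alternatives gave 3498 to 5915 genes higher and 4018 to 5246 lower, and upper-quartile scaling shifted the median log2 fold change of all genes to 0.09. In the lists, 38 of 55 genes kept their call in every alternative, 17 did not, and 0 took the opposite one. Of the 16 neighbours, 11 kept theirs. Same-numbered libraries did not deviate together (correlation -0.04 over 9052 genes). With the replicate block the log2 fold changes were -1.79 for VKORC1L1, -0.07 for VKORC1, -0.26 for GGCX and -0.63 for NQO1, with 5014 genes higher and 5229 lower, and the block changed no call in the lists. If every read on shared exon bases had gone uncounted, the VKORC1L1 share would differ by -26.8 percentage points, PRMT9 hairpin minus control hairpin. Over whole exons the difference was -13.2. The first value, a rescaling with no reads recounted, was chosen after seeing the data. That rescaling could change the size of the difference but not its sign. VKORC1 had 71 to 93 counts in a library, which limits the precision of its value.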
